A study of Mus musculus with 4 samples.

Results

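The 10 genes described here are regulators of undifferentiated spermatogonia, the stem and progenitor germ cells of the testis. They were taken by exact gene symbol (Gfra1, Ret, Etv5, Id4, Zbtb16, Sall4, Neurog3, Nanos3, Lin28a and Uchl1), and all 10 were found among the 55401 rows of each expression table. RNA came from testes at postnatal day 14, when the first wave of germ cells has reached meiotic prophase. The 4 libraries were 2 from mice heterozygous for Kctd19 (Kctd19+/-, here het) and 2 from knockouts (Kctd19-/-, here ko), all C57BL/6J and untreated, and the series design calls the replicates biological. Neither the deleted part of Kctd19 nor the number of animals behind each library is given in the labels. The question was which transcripts differ between ko and het at this age. Expression is given as FPKM, which counts fragments per kilobase of exon and scales them to each library's assigned reads.

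As background, stem spermatogonia depend on GDNF, a growth factor from Sertoli and peritubular cells, which binds the surface protein GFRA1 and signals through the receptor kinase RET. Below the receptor, transcription factors such as ETV5 and the HLH protein ID4 are tied to self-renewal in the mouse, ZBTB16 and SALL4 act in the whole undifferentiated pool, and NEUROG3, LIN28A and NANOS3 are known from its progenitor side. These cells are a minority of the juvenile testis, and in whole-tissue RNA a lower level from fewer cells cannot be told apart from less RNA per cell.

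Assigned reads per library, estimated from the spacing of the FPKM values, ranged from 12155088 to 19430363. These totals are approximate. Kctd19 itself had 29.7 and 18.2 FPKM in the het pair and 12.8 and 15.6 in the ko pair (limma log2 fold change -0.69, SE 0.25, Benjamini-Hochberg adjusted p = 0.529), so its RNA was still measured in the ko. The germ cell markers Ddx4 and Dazl were present in every library at 74.2 FPKM or more, and Ddx4 itself was at 118 and 91.1 FPKM in the het pair, 74.2 and 74.7 in the ko pair (log2 fold change -0.47, limma adjusted p = 0.477). Across all 17905 genes tested, 37 (0.207%) were called higher in ko and 2 (0.0112%) lower at an adjusted p under 0.05. Without any single library, limma called 0 genes.

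None of the 10 regulators passed limma's test for a difference between ko and het. The lowest adjusted p among them was 0.505 (limma, Benjamini-Hochberg over all 17905 genes), 1 gene of 10 (Neurog3) was at an unadjusted p under 0.05 and higher in ko against 4.9% of all genes tested, and 0 were lower at that p against 4.41%. A test on the whole reads behind the FPKM values, limma voom, also called 0 of 10, against 0.768% of its genes called higher and 0.608% lower, with 2 of the 10 higher at an unadjusted p under 0.05 (Neurog3 and Uchl1) against 5.06% of its genes, and 1 lower (Id4) against 5.46%. All 10 passed the filter of a mean of at least 1 FPKM. In 9 of 10 the log2 fold change was above 0, against 52.1% of all genes tested, and the median was 0.17 against 0.01 for all genes. Leaving out het replicate 1 gave a median of 0.05, and leaving out het replicate 2 gave 0.31. Complete separation with ko on top was seen for 4 genes (Gfra1, Neurog3, Lin28a and Uchl1), as for 22.1% of all genes tested, and with ko below for 1, Id4, as for 19.7%. With 2 libraries a group, the smallest two-sided p that an exact permutation test can give is 0.333, so single values were not tested that way.

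The promoters of the genes with the highest and the lowest log2 fold change, Neurog3 and Id4, are shown. Both encode HLH proteins that pair with E proteins, and only NEUROG3 binds DNA. NEUROG3 is a basic HLH protein that binds E-boxes (CANNTG, a palindromic core) with an E protein partner, and ID4 has no basic region and holds such partners off DNA. The windows run from 250 bases before to 50 after the RefSeq start, on the plus strand of GRCm38.p6 at chr10:62132840-62133139 and chr13:48260866-48261165, and capitals mark each E-box.
Neurog3: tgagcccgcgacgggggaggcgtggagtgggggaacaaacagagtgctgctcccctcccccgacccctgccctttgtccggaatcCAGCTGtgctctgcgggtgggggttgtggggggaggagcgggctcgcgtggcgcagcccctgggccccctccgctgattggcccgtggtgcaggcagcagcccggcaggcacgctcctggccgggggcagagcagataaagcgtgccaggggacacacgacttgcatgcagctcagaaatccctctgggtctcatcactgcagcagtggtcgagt
Id4: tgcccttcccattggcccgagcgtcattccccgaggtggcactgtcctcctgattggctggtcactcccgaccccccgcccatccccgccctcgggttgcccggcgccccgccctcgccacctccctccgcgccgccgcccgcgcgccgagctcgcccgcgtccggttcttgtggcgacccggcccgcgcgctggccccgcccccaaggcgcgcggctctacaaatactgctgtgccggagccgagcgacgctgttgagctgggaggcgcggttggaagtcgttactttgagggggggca
The Neurog3 window holds 1 E-box and the Id4 window 0. Of all 32851 RefSeq promoter windows of this length, 72.3% hold at least 1, so either result is common. Windows were found for 7 of the 10 genes; Gfra1 has 3 E-boxes, Nanos3 has 2, 1 of the 2 Etv5 windows has 2, and Lin28a, Uchl1 and the other Etv5 window have 0.

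By level, Uchl1 stood far above the rest. It averaged 104 FPKM over the 4 libraries (SD 19.2), more than 98.6% of tested genes, and its lowest library did not reach down to the highest of the next gene. Lin28a, Zbtb16, Id4, Sall4 and Etv5 followed, with means between 6.72 and 9.90 FPKM, and each neighbouring pair in that order overlapped in range. Nanos3, Ret, Neurog3 and Gfra1 formed the low end, with means between 1.64 and 2.602 FPKM that again overlapped from neighbour to neighbour, while Nanos3 did not overlap Etv5 above it. Reads behind these low values were few for Nanos3 (23 to 49) and Neurog3 (34 to 86), and 101 or more in every library for Ret and Gfra1.

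**Figure D1:**
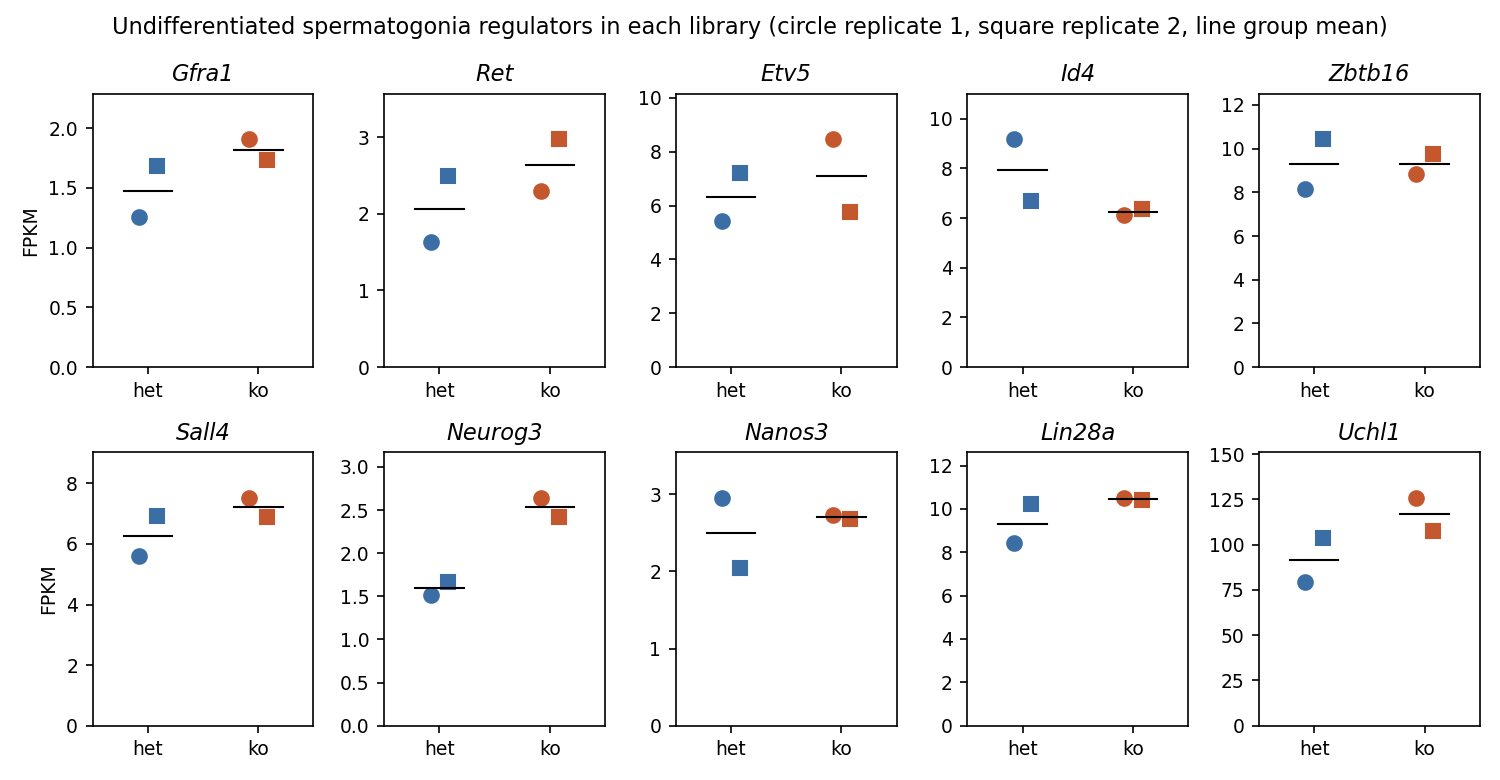
FPKM of each of the 10 regulators in the 2 het (blue) and 2 ko (orange) libraries, with replicate 1 as circles, replicate 2 as squares and the group mean as a line; each axis starts at 0. Neurog3 is the gene whose ko points, 2.64 and 2.42 FPKM, stand farthest above its het points, 1.51 and 1.67 FPKM, relative to their spread.

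The GDNF receptor genes were low among the genes tested. Gfra1 (GRCm38 chr19:58235604-58455909, minus strand), the ligand-binding co-receptor, had 1.26 and 1.68 FPKM in the het pair, 1.91 and 1.73 in the ko pair, from 101, 112, 203 and 138 reads. Its groups did not overlap, but het replicate 2 and ko replicate 2 were nearly level. The group means were 1.47 ± 0.299 and 1.82 ± 0.126 FPKM (SD, n = 2 each), and the log2 fold change of 0.19 (95% interval -0.27 to 0.66) did not pass (limma, Benjamini-Hochberg adjusted p = 0.768). Ret (chr6:118151745-118197718, minus strand), the signalling kinase, had 1.64 and 2.49 FPKM in the het pair, 2.30 and 2.97 in the ko pair, so the groups overlapped, with a log2 fold change of 0.25 (95% interval -0.28 to 0.79). Without het replicate 1, the lowest library for both genes, the log2 fold changes were 0.07 for Gfra1 and 0.05 for Ret, and without het replicate 2 they were 0.32 and 0.46.

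Of the transcription regulators, Neurog3 was higher and Id4 lower in both ko libraries, and 3 others overlapped between groups. Neurog3 (chr10:62133090-62134763, plus strand), which marks progenitors on their way to differentiation, had 1.51 and 1.67 FPKM in the het pair, 2.64 and 2.42 in the ko pair, from 37, 34, 86 and 59 reads. Its mean was 1.59 ± 0.114 FPKM in het and 2.53 ± 0.160 FPKM in ko (SD, n = 2 each), or 1.59-fold. The log2 fold change was 0.45 (SE 0.15, 95% interval 0.07 to 0.83), with an unadjusted p of 0.0299 that was lost over all genes (limma, Benjamini-Hochberg adjusted p = 0.505; voom on whole reads, adjusted p = 0.441). It kept its direction without each library in turn, between 0.40 and 0.49, but the interval then included 0 each time, as it did with the replicate number as a block (-0.04 to 0.94). On the opposite strand, exons of the gene Fam241b cover 273 bases (16.3%) of Neurog3's exons. No source used here gives the strand setting of the counting, and reads from that stretch could belong to either gene. Fam241b had 4.54 and 4.75 FPKM in the het pair, 6.18 and 4.51 in the ko pair.

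Id4 (chr13:48261228-48266026, plus strand), the inhibitor of E proteins that marks stem cells, was the 1 regulator with a log2 fold change below 0. It had 9.18 and 6.69 FPKM in the het pair, 6.11 and 6.35 in the ko pair, and the first het library stood alone while the other 3 lay close together. The log2 fold change was -0.29 (95% interval -0.70 to 0.12; limma, Benjamini-Hochberg adjusted p = 0.634; voom, unadjusted p = 0.0443 and adjusted p = 0.452). Leaving out het replicate 1 gave -0.09, and leaving out het replicate 2 gave -0.49. As a ratio within each library, which no scaling between libraries can move, Id4 stood at 6.08 and 4.004 times the FPKM of Neurog3 in het and at 2.31 and 2.62 times in ko. This pair was chosen after its values were seen, and the ratio was not tested. The other Id genes, which dampen the same partners in many cell types, were more abundant: Id1, Id2 and Id3 averaged 15.7, 21.3 and 20.8 FPKM, and their log2 fold changes were 0.20, 0.15 and 0.20 (limma, Benjamini-Hochberg adjusted p = 0.650, 0.622 and 0.737).

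Etv5 (chr16:22381309-22439719, minus strand), an ETS factor induced by GDNF signalling and also known from Sertoli cells, had 5.43 and 7.22 FPKM in the het pair, 8.47 and 5.75 in the ko pair. The groups overlapped, and the spread within ko (SD 1.92, n = 2) exceeded the difference of the means. Its direction depended on single libraries, with log2 fold changes of 0.14 with all 4 libraries, -0.04 without het replicate 1 and -0.11 without ko replicate 1. Of the 50-base words in Etv5 transcripts, 24.5% also occur in other annotated genes, mainly Gm4798, a gene with at most 1 read in any library. Zbtb16 (chr9:48654297-48836222, minus strand), the zinc finger repressor also called PLZF, was at 8.15 and 10.4 FPKM in the het pair, 8.84 and 9.77 in the ko pair. Both ko values lay between the het values, and the log2 fold change was 0.01 (95% interval -0.36 to 0.37).

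Sall4 (chr2:168748332-168767943, minus strand), a zinc finger partner of ZBTB16 in spermatogonia, was at 5.61 and 6.91 FPKM in the het pair, 7.53 and 6.88 in the ko pair. Het replicate 2 and ko replicate 2 were level, and the log2 fold change was 0.18 (95% interval -0.15 to 0.51; limma, Benjamini-Hochberg adjusted p = 0.697), moving to 0.05 without het replicate 1 and to 0.31 without het replicate 2. Of the paralogs, Zbtb32 averaged 20.1 FPKM, above Zbtb16, and Sall2 4.02 FPKM and Sall1 1.65 FPKM, below Sall4. Etv1 and Etv4, relatives of Etv5, averaged 1.05 and 1.16 FPKM.

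The genes of the RNA-binding proteins, Lin28a and Nanos3, did not pass the test either. Lin28a (chr4:134003330-134018841, minus strand), which blocks maturation of let-7 microRNAs, had 8.43 and 10.2 FPKM in the het pair, 10.5 and 10.4 in the ko pair. The groups did not overlap, but het replicate 2 lay close to both ko libraries. The log2 fold change was 0.16 (95% interval -0.14 to 0.46; limma, Benjamini-Hochberg adjusted p = 0.704), with 0.03 without het replicate 1 and 0.28 without het replicate 2. Its paralog Lin28b had a mean of 5.27 FPKM and a log2 fold change of 0.01. Nanos3 (chr8:84173731-84185217, minus strand), a translational regulator, was at 2.96 and 2.05 FPKM in the het pair, 2.73 and 2.67 in the ko pair, with both ko values inside the het range. Its log2 fold change was 0.09 with all libraries and -0.10 without het replicate 2. Nanos1 averaged 4.84 FPKM and Nanos2, a stem cell factor, 0.301 FPKM.

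Uchl1 (chr5:66676091-66687234, plus strand), a ubiquitin hydrolase abundant in spermatogonia and in neurons, was the best measured of the 10, with 1896 to 3994 reads. It had 79.4 and 103 FPKM in the het pair, 126 and 108 in the ko pair, or 91.4 ± 17.1 and 117 ± 13.0 FPKM (SD, n = 2 each). The groups did not overlap, by a margin smaller than the spread within either. The log2 fold change was 0.36 (95% interval -0.07 to 0.79; limma, Benjamini-Hochberg adjusted p = 0.588; voom, unadjusted p = 0.0145 and adjusted p = 0.283), with 0.17 without het replicate 1 and 0.55 without het replicate 2. The antisense gene Uchl1os covers 295 bases (18.1%) of its exons and had 14.04 and 16.6 FPKM in the het pair, 18.8 and 15.5 in the ko pair. Of the related hydrolases, Uchl3 and Uchl5 averaged 11.1 and 11.2 FPKM, with log2 fold changes of -0.03 and -0.22, and Uchl4 stood at 1.23 and 0.991 FPKM in the het pair, 1.46 and 1.89 in the ko pair.

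**Figure D2:**
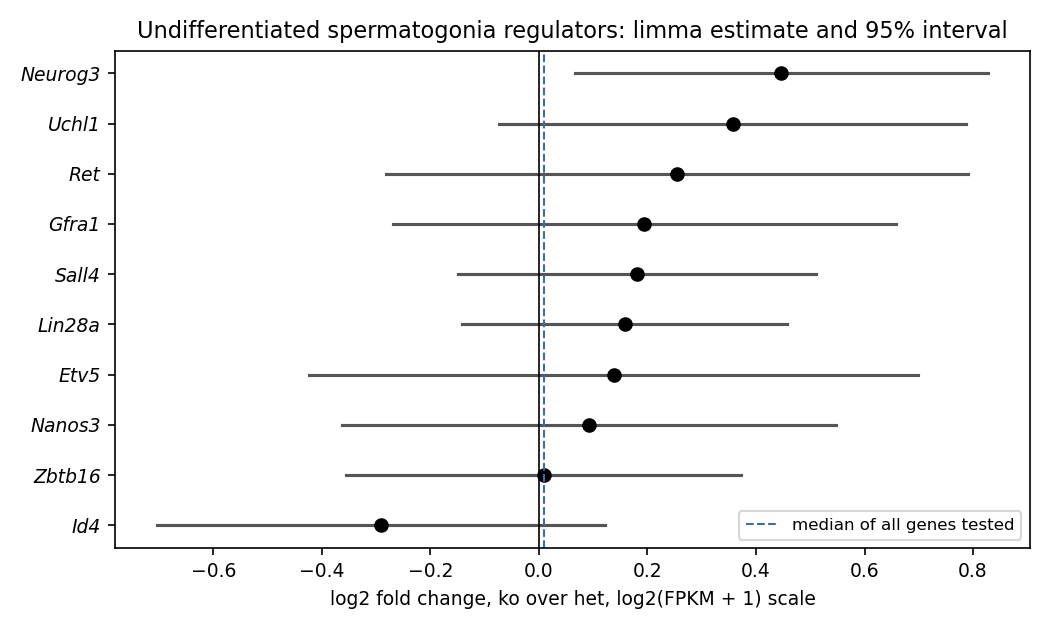
Limma log2 fold change (ko over het, log2(FPKM + 1) scale) of each regulator with its 95% interval, not adjusted for the number of genes. The interval of Neurog3, 0.07 to 0.83, is the 1 that lies wholly above 0 in this fit of all 4 libraries, and the other 9 include 0.

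No interval of the main fit (all 4 libraries, log2(FPKM + 1) scale) reached 1, the widest being that of Etv5, -0.42 to 0.70. For low genes such as Gfra1 and Neurog3 the added pseudocount of 1 shrinks the estimate, and with a pseudocount of 0.1 the Neurog3 value was 0.64 in place of 0.45. The upper limits then passed 1 for Neurog3 (1.17), Ret (1.09) and Gfra1 (1.013), and voom put that of Neurog3 at 1.32, so a doubling of these genes lies within some of the intervals.

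Het replicate 1 stood apart for most of the set. It was the lowest library for 8 of the 10 regulators, against 29.0% of all genes tested, and the highest for the remaining pair, Id4 and Nanos3. Ko replicate 1 was the highest for 6 of 10, against 32.9% of all genes. Markers of other cells differed between the same libraries. The summed FPKM of 7 meiotic spermatocyte markers was 685 and 487 in het and 437 and 448 in ko, with het replicate 1 highest for 6 of the 7. Both ko libraries lay below both het for 4 of the 7, against 19.7% of all genes tested. Voom called 2 of the 7 lower, Piwil1 and Ldhc (adjusted p = 0.000645 and 0.00647), against 0.608% of its genes. Limma called 0 of the 7, against 0.0112% of all genes tested called lower. Piwil1 had 28.1 and 14.3 FPKM in the het pair, 3.65 and 5.01 in the ko pair. Ldhc had 78.0 and 30.7 FPKM in the het pair, 11.7 and 10.6 in the ko pair. The log2 fold change was above 0 for 1 of the 7. The summed FPKM of 9 Sertoli markers was 975 and 1147 in het and 1450.5 and 1187 in ko, with het replicate 1 lowest for 7 of the 9 and ko replicate 1 highest for 8. Both ko libraries lay above both het for 3 of the 9, against 22.1% of all genes tested. The 4 macrophage markers summed to 34.2 and 34.3 FPKM in het and to 76.2 and 60.9 in ko. Both ko libraries lay above both het for 4 of 4, against the same 22.1%. Voom called 1 of the 4 higher, C1qa (adjusted p = 0.000324), against 0.768% of its genes. Limma called 0 of the 4 (C1qa, adjusted p = 0.0750), against 0.207% of all genes tested called higher. The 3 pan-germ cell markers (Ddx4, Dazl and Mael) summed to 440 and 366 FPKM in het and to 347 and 339 in ko. Both ko libraries lay below both het for 3 of 3, against 19.7% of all genes tested. That direction was opposite to most regulators. The 3 spermatid markers summed to 1.47 and 0.0226 FPKM in het and to 28.1 and 1.32 in ko, so that ko replicate 1 stood apart, and 2 of them, Prm1 and Tnp1, were at 0 in het replicate 2. No marker of the other 4 lists was at 0 in any library. Markers of Leydig, peritubular, endothelial and Schwann cells were listed too, and limma and voom called 0 of them. All 6 Leydig markers overlapped between groups. Cyp17a1, named for its spread within het, had 27.6 and 2.85 FPKM in the het pair, 16.7 and 22.1 in the ko pair. The part of all these lists in the values of the 10 genes was not tested.

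**Figure D3:**
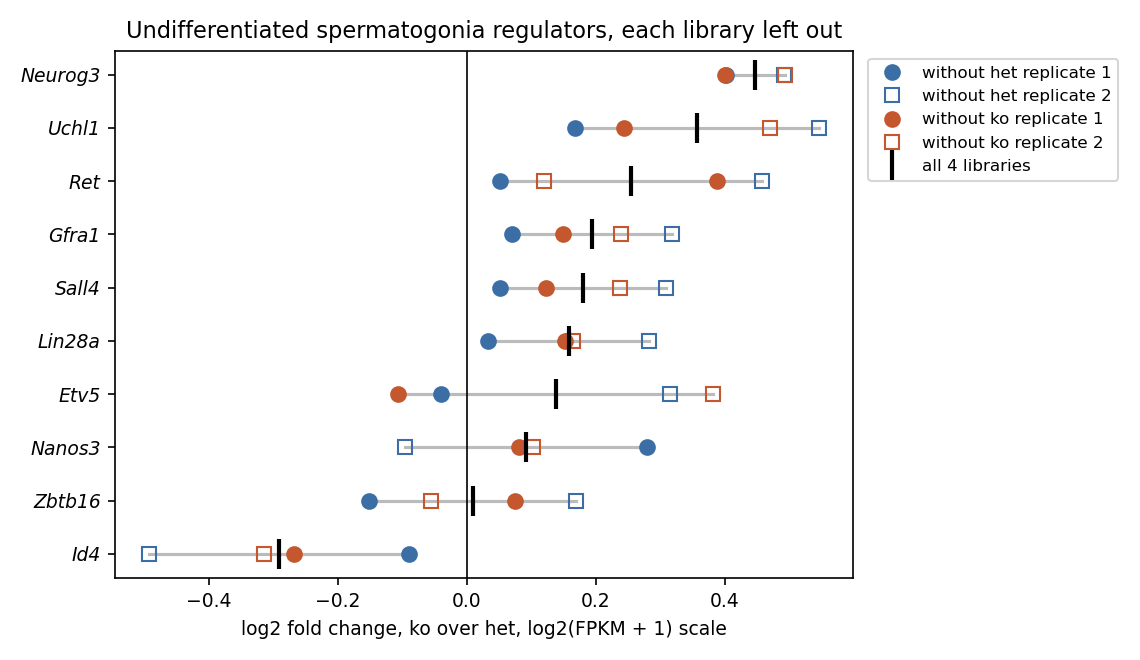
Limma log2 fold change of each regulator (ko over het, log2(FPKM + 1) scale) with all 4 libraries (black bar) and without each library in turn (blue for het, orange for ko; filled circle replicate 1, open square replicate 2). Neurog3 stays between 0.40 and 0.49, while Etv5, Nanos3 and Zbtb16 cross 0.

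Other genes of undifferentiated spermatogonia lay in the same range. Of 30 listed, 20 reached the filter, and 0 were called by limma or voom (limma, lowest adjusted p = 0.433). At an unadjusted limma p under 0.05, 2 were higher and 0 lower, against 4.9% and 4.41% of all genes tested. At an unadjusted voom p under 0.05, 2 were higher and 1 (Shisa6) lower, against 5.06% and 5.46% of its genes. The log2 fold change was above 0 in 16 of the 20, against 52.1% of all genes tested. The median was 0.11. The groups separated with ko on top in 9 and with ko below in 2, against 22.1% and 19.7% of all genes tested. Epcam, a cell adhesion protein of undifferentiated germ cells, had 15.97 and 16.1 FPKM in the het pair, 19.5 and 20.04 in the ko pair (log2 fold change 0.29, limma adjusted p = 0.433). Sox3, an HMG-box factor of progenitors, had 10.3 and 11.3 FPKM in the het pair, 15.4 and 12.9 in the ko pair (log2 fold change 0.36, limma adjusted p = 0.506). Upp1, a uridine phosphorylase, and Mcam, an adhesion molecule, had log2 fold changes of 0.24 and 0.16 (limma, adjusted p = 0.635 for each). Shisa6, named after its values were seen, had 1.65 and 1.58 FPKM in the het pair, 1.06 and 1.25 in the ko pair. Its log2 fold change was -0.28 (limma adjusted p = 0.669, voom unadjusted p = 0.0191 and adjusted p = 0.322). The 10 that stayed under a mean of 1 FPKM were Lhx1, Egr2, Eomes, Pax7, Nanos2, Pdx1, Cdh1, Thy1, Utf1 and Piwil4, a group that includes genes described in rare stem cells.

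On the niche side, 15 of 23 ligands and receptors reached the filter, and 0 were called by limma or voom. At an unadjusted limma p under 0.05 there were 0, against 4.9% of all genes tested higher and 4.41% lower. The median log2 fold change was -0.01. Gdnf itself (chr15:7810846-7837575, plus strand) had 2.08 and 2.64 FPKM in the het pair, 1.72 and 2.02 in the ko pair. Both ko libraries lay below both het libraries, and the log2 fold change of -0.23 (95% interval -0.66 to 0.21) did not pass (limma, Benjamini-Hochberg adjusted p = 0.709). The growth factor Igf1 was at 24.8 and 23.7 FPKM in the het pair, 21.5 and 15.9 in the ko pair (log2 fold change -0.37, limma adjusted p = 0.559; voom, unadjusted p = 0.00977 and adjusted p = 0.235). Csf1, a ligand that acts on macrophages and spermatogonia, had a log2 fold change of 0.14, and the receptor gene Fgfr3 -0.20 (limma, adjusted p = 0.688 and 0.739). Among the other GFRA co-receptors, Gfra4 averaged 1.57 FPKM, near Gfra1, and Gfra2 and Gfra3 0.594 and 0.720 FPKM.

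In the next cells of the lineage, 9 of 9 listed genes of differentiating spermatogonia were tested, 0 were called by limma or voom (limma, lowest adjusted p = 0.459), and the median log2 fold change was 0.18. At an unadjusted limma p under 0.05, 2 of the 9 were higher and 0 lower, against 4.9% and 4.41% of all genes tested. By voom, 3 were higher and 0 lower at that p, against 5.06% and 5.46% of its genes. The log2 fold change was above 0 in 7 of the 9, against 52.1% of all genes tested. The groups separated with ko on top in 5 and with ko below in 1, against 22.1% and 19.7%. Sohlh2 and Sohlh1, the basic HLH pair that drives differentiation, had log2 fold changes of 0.39 and 0.33, Crabp1, a retinoic acid binding protein, 0.49, and the homeobox gene Rhox13 0.20 (limma, adjusted p from 0.459 to 0.563). Kit, the receptor that marks differentiation, was named after its values were seen, with 10.9 and 11.6 FPKM in the het pair, 12.05 and 10.4 in the ko pair.

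**Figure D4:**
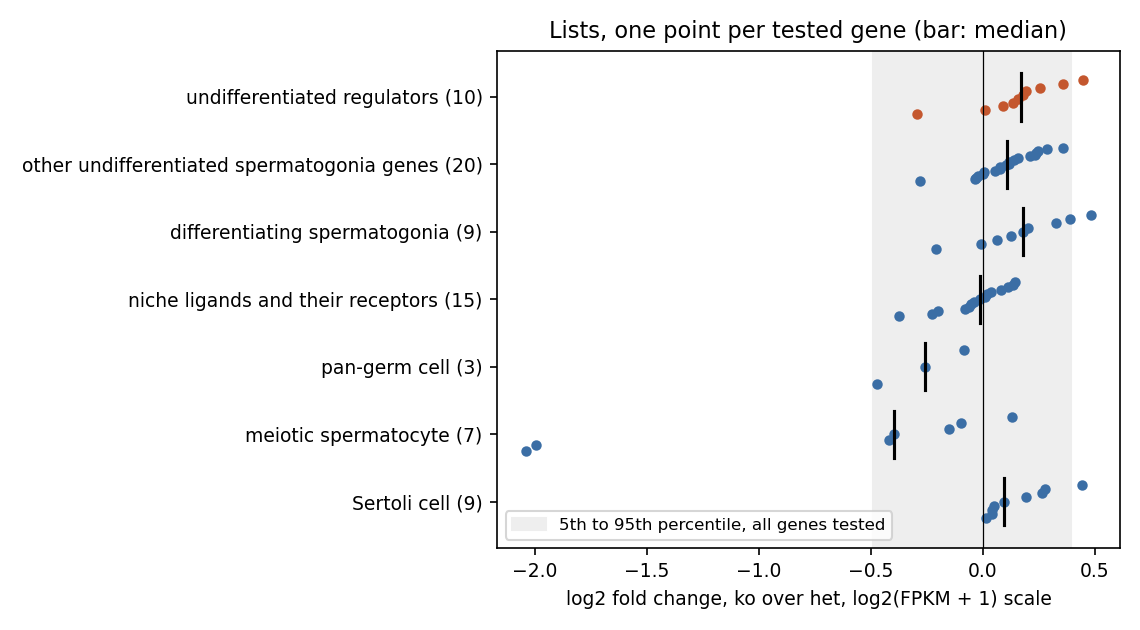
Limma log2 fold change (ko over het, log2(FPKM + 1) scale) of each tested gene in 7 lists, with list medians as bars, list sizes in parentheses and the grey band from the 5th to the 95th percentile of all genes tested (-0.49 to 0.39). The regulators (median 0.17) lie beside the other undifferentiated genes (0.11) and the differentiating genes (0.18), and the spermatocyte markers have a median of -0.40.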

How the data were processed

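Poly(A) RNA of testes was sequenced in 4 libraries. The deposited values are FPKM per gene symbol, per the file headers. The submitters' processing notes name GRCm38, STAR 2.6.1a, CASAVA 1.9, edgeR and featureCounts without a role; no source used here gives the annotation release or the strand setting.

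Symbols were matched to GENCODE M21 (GRCm38) for position and exon length, which placed 53177 rows (96.0%). Values times exon length fell on a grid whose unit was taken as 1 read; 99.1% or more of values up to 20 reads were whole within 0.02. Genes averaging 1 FPKM or more were fitted on log2(FPKM + 1) by genotype in limma 3.58.1 (R 4.3.3, intensity trend), with Benjamini-Hochberg adjustment over 17905 genes and calls at an adjusted p under 0.05. Named were all 10 regulators, Gdnf, paralogs at 10% or more of a regulator's level, and in each list without a call the 4 genes of smallest p. Uchl4, Shisa6, Kit and single cell type markers were named outside this rule, with their values known. Alternatives were a pseudocount of 0.1, no filter, a replicate block, each library left out, voom on whole reads (17446 genes), median-of-ratios scaling and quantile normalization. On simulated reads, limma recovered most genes of the larger folds but none of the smallest fold tried, a doubling. The simulated spread was an assumed value shared by every gene, so this recovery does not measure that of the 4 libraries. A missing call does not show equal levels. The genes and lists were chosen with earlier results of these data known. P-values rest on the spread between 2 libraries a group, which limma moderates with the spread of all genes in the fit.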

Additional observations from a re-analysis of the deposited data

How the results depend on the processing

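No regulator was called under any of the 10 alternatives, the lowest adjusted p being 0.283 (Uchl1, voom on whole reads), and 0 genes of the other undifferentiated and niche lists were called in any. Of 100 values of the 10 regulators under these alternatives, 95 kept their direction and 5 reversed, all when a library was left out: Etv5 at -0.04 without het replicate 1 and -0.11 without ko replicate 1, Zbtb16 at -0.15 without het replicate 1 and -0.06 without ko replicate 2, and Nanos3 at -0.10 without het replicate 2. Dropping the filter or adding the replicate block cannot change these log2 fold changes, so the direction under those alternatives was kept by construction. Left-out libraries moved Etv5 between -0.11 and 0.38 and Nanos3 between -0.10 and 0.28. The cause was not tested. The count of genes called over the whole table, 39 in the main analysis, was less stable: limma called 0 without each library in turn (0 in either direction; unadjusted, 558 to 990 genes were higher and 479 to 1034 lower) and 0 with no filter (unadjusted, 1767 genes higher and 1331 lower), while voom called 240, 134 higher and 106 lower. With the replicate number as a block 15 genes were called, 15 higher and 0 lower. The median of the regulators stayed at 0.17, since the balanced block cannot move it. The same-numbered libraries deviated together by r = -0.03 across genes, so the numbers are not shown to pair the samples. The count of regulators at an unadjusted p under 0.05, 1 with all libraries (Neurog3), was 0 with the block and without het replicate 1, ko replicate 1 or ko replicate 2, 2 without het replicate 2 (Id4 and Uchl1, not Neurog3), and 3 by voom. Nanos3 and Neurog3 rest on few reads.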
